A study of Chlamydomonas reinhardtii with 21 samples.

Results

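UVM11-C1 is a strain of the green alga Chlamydomonas reinhardtii in which a working copy of SRTA, a sirtuin-type histone deacetylase (HDAC), was returned to the srta mutant UVM11. Its transcriptome was compared with that of UVM11 in 3 liquid cultures of each strain from the same batch. The comparison used all genes with a mean above 0.1 FPKM (fragments mapped to a gene, scaled to its length and to the size of the library) over the 21 libraries of the series, which left 15425 of 17741 gene models. UVM11-C1 is a single transformant clone of UVM11 that carries srta-1, a point mutation obtained by UV mutagenesis, together with a FLAG-tagged wild-type SRTA cDNA behind the native SRTA promoter and a hygromycin resistance gene behind the TUB2 promoter, and it was kept on hygromycin. UVM11 (batch 2) carries srta-1 without this construct. UVM11-C9, a second clone with the same construct, completed batch 2 with 3 cultures. Batch 1 held 4 cultures each of UVM11, of UVM4 with the allele srta-2, and of Elow47, the unmutagenized control strain. The study reports many other mutations from the UV treatment in the genomes of UVM11 and UVM4. Their effects and those of the srta alleles cannot be told apart where these mutants are compared with Elow47. All strains derive from Elow47, so that UVM11-C1 and UVM11 share its cell-wall-deficient background and its emetine resistance transgene CRY1-1. The cultures were grown mixotrophically in continuous light and harvested in the mid-logarithmic phase. The replicates of UVM11 in batch 2 are numbered 5, 6 and 7. Those of UVM11-C1 were matched to their strain by a column code that differs from that of UVM11 in the case of a letter, could not be matched to a number, and are called cultures a, b and c.

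HDACs remove acetyl groups from lysines of histones and other proteins, and sirtuins do so with NAD as a cosubstrate. Removal of acetyl groups from histone tails generally accompanies compact, poorly transcribed chromatin. In Chlamydomonas, nuclear transgenes are usually poorly expressed, and UVM4 and UVM11 were isolated as mutants that express them well. Adding back the wild-type allele therefore asks which native transcripts differ between cells with and without a functional copy of SRTA in an otherwise like background. With 1 clone, effects of the returned gene, of the insertion site, of the marker and of changes during separate culture of the strains cannot be told apart. The limma p-values below rest on the spread between cultures, pooled over the 6 groups of the series, not on that between independent transformants.

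The 6 libraries were alike in depth. Relative sequencing depth, recovered from the FPKM steps of genes with few fragments, ranged over 0.967 to 1.13 times the series mean in UVM11-C1, against 0.881 to 1.12 times in UVM11. The number of gene models listed at 0 FPKM ranged over 1641 to 1926 in UVM11-C1, against 1492 to 1603 in UVM11. None of the 6 libraries was a copy of another, since each shared at most 2 identical values above 0 with any other library. The absolute number of fragments is unknown, so that a value of 0 has no detection limit here.

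SRTA itself (Cre10.g462200, chromosome 10, 5935593 to 5941064, Chlamydomonas genome v5) was used as a check of the labels. Its transcripts were at 5.10, 5.63 and 4.84 FPKM in UVM11-C1, against 2.92, 2.65 and 2.83 FPKM in UVM11. Every culture of UVM11-C1, the strain with an added copy of the gene, was above every culture of UVM11. UVM11-C1 had the highest mean of all groups and UVM11 of batch 2 the lowest. UVM11-C9 averaged 3.48 FPKM, a log2 fold change over UVM11 of 0.30 (adjusted p = 0.0304 in limma). The groups of batch 1, which lack the construct, averaged 3.45 to 3.51 FPKM, so this check of the labels is limited. The FPKM table has 1 value per gene, so transcripts of srta-1 and of the introduced allele cannot be told apart. The log2 fold change, on the log2(FPKM + 0.1) scale used throughout, was 0.87 (± 0.11 SE, adjusted p = 1.82e-05 in limma). An exact two-sided permutation test of the 6 values gave p = 0.1, the smallest that 3 against 3 cultures allow. SRTA was also higher in UVM11-C1 than in UVM11-C9, by 0.56 on the log2 scale (± 0.11 SE, adjusted p = 0.000363 in limma). Upstream and downstream of SRTA, Cre10.g462150 had a log2 fold change of 0.20 (adjusted p = 0.264 in limma) and Cre10.g462250 one of 0.02 (adjusted p = 0.821 in limma). The next gene, Cre10.g462300, averaged 5.70 FPKM in UVM11-C1, against 4.36 FPKM in UVM11, a log2 fold change of 0.37 (adjusted p = 0.00487 in limma).

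The other HDAC genes differed little. Of the 17 HDAC genes annotated in the study, all were tested, 10 had a log2 fold change above 0 and 7 one below 0, with a median of 0.09, against 0.00 over all 15425 genes. Besides SRTA, 1 of them had an adjusted p below 0.05, compared with 18.4% of all tested genes. This was HDA11 (Cre11.g469600), with 6.04, 6.36 and 7.19 FPKM in UVM11-C1, against 5.76, 4.67 and 6.03 FPKM in UVM11. The lowest culture of UVM11-C1 and the highest of UVM11 nearly met, and the log2 fold change was 0.25 (± 0.08 SE, adjusted p = 0.0318 in limma). The most abundant HDAC transcript, HDA7 (Cre09.g387393), had 30.4, 28.3 and 29.6 FPKM in UVM11-C1, against 31.1, 31.6 and 30.4 FPKM in UVM11, a log2 fold change of -0.08 (adjusted p = 0.297 in limma). The other sirtuin genes had log2 fold changes of 0.09 for SRTB (SE 0.24) and -0.02 for SRTC (SE 0.07).

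Differentially expressed genes (DEGs) were defined by a log2 fold change beyond 1 and a limma adjusted p below 0.01. They numbered 191, or 1.24% of the tested genes. Of these, 51 (0.331%) were higher and 140 (0.908%) lower in UVM11-C1, so that 73.3% of the DEGs were lower. In none of them did the values of the 3 cultures of UVM11-C1 overlap those of the 3 cultures of UVM11, compared with 29.3% of all tested genes whose values did not overlap. The DEGs were chosen by fold and p-value from these same cultures, which favours such separation, so it is given as a description. Many smaller differences also passed the p threshold, since 1286 genes had an adjusted p below 0.01 without regard to fold, 551 higher (3.57%) and 735 lower (4.76%). Changes beyond 2 on the log2 scale were found for 12 of the higher and 42 of the lower DEGs.

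**Figure D1:**
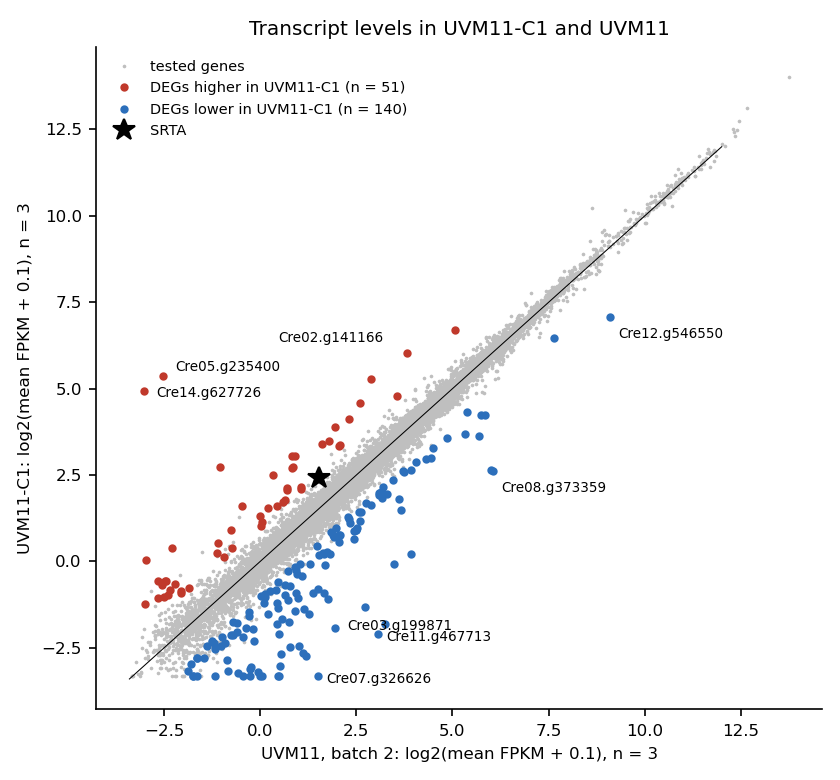
Mean transcript level of the 15425 tested genes in UVM11-C1 (vertical axis) against UVM11 of batch 2 (horizontal axis), both as log2(mean FPKM + 0.1) over 3 cultures, with the line of equal levels. The 51 DEGs higher in UVM11-C1 are red, the 140 lower ones blue, and SRTA is a star. Cre14.g627726 and Cre05.g235400 lie far above the line, and most blue points lie at low levels.

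DEGs were mostly weakly expressed genes. The median of the mean level over the 21 libraries was 1.46 FPKM for DEGs higher in UVM11-C1 and 1.06 FPKM for DEGs lower in it, compared with 5.61 FPKM for all tested genes. A mean below 1 FPKM was found for 23 of the 51 higher DEGs (45.1%) and 69 of the 140 lower DEGs (49.3%), compared with 12.4% of all tested genes. At these levels the pseudocount shrinks fold changes, and with a pseudocount of 1 only 22 DEGs were higher and 56 lower. The median gene length was 4192 bp in the higher and 3740 bp in the lower DEGs, compared with 4538.5 bp in all tested genes.

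The deepest decreases in UVM11-C1 concerned genes with readily measured transcripts in UVM11 and almost none in UVM11-C1. Cre11.g467713 (chromosome 11, 1333062 to 1334533) had 0.212, 0.0363 and 0.146 FPKM in UVM11-C1, against 7.63, 8.09 and 8.96 FPKM in UVM11. The groups were far apart, with a log2 fold change of -5.25 (± 0.42 SE, adjusted p = 1.94e-08 in limma). Cre16.g674151 (chromosome 16, 6342612 to 6344005) had 0.120, 0.102 and 0.343 FPKM in UVM11-C1, against 8.76, 9.39 and 9.997 FPKM in UVM11, a log2 fold change of -5.13 (± 0.23 SE, adjusted p = 1.55e-12 in limma). Culture c was the highest of the UVM11-C1 cultures and still far below UVM11. Cre01.g042700 (chromosome 1, 6021460 to 6024465) had 0.344, 0.157 and 0.394 FPKM in UVM11-C1, against 7.58, 7.43 and 4.48 FPKM in UVM11, a log2 fold change of -4.07 (± 0.26 SE, adjusted p = 3e-10 in limma). Cre12.g554100 (chromosome 12, 7690992 to 7699950) kept about 1 FPKM in UVM11-C1, with 0.988, 1.16 and 1.02 FPKM, against 16.6, 10.1 and 18.5 FPKM in UVM11, a log2 fold change of -3.67 (± 0.36 SE, adjusted p = 4.57e-07 in limma). The function of these genes is not annotated in the sources used here.

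Some transcripts were not seen in UVM11-C1. Of all 17741 gene models, those at 0 FPKM in all 3 cultures of UVM11-C1 and above 0 in all 3 cultures of UVM11 numbered 57, of which 15 passed the filter and 11 were DEGs. The reverse pattern was found for 9 gene models, none of which passed the filter. Each culture of UVM11-C1 had more gene models at 0 than any culture of UVM11 (1641 to 1926, against 1492 to 1603), which favours the first pattern. The most abundant of the missing transcripts was Cre07.g326626 (chromosome 7, 2156932 to 2159693), which was listed at 0 in each culture of UVM11-C1, against 2.53, 2.73 and 3.004 FPKM in UVM11 (adjusted p = 1.28e-11 in limma). Cre12.g539141 (chromosome 12, 6603467 to 6605407) was at 0 in each culture of UVM11-C1, against 1.19, 1.32 and 1.40 FPKM in UVM11 (adjusted p = 3.07e-12 in limma). Cre11.g474650 (chromosome 11, 2375651 to 2377262) was at 0 in each culture of UVM11-C1, against 1.28, 1.00 and 1.57 FPKM in UVM11 (adjusted p = 1.5e-11 in limma). No fold is given for these genes, because the table holds no counts. They differed in UVM11-C9, where Cre12.g539141 averaged 1.12 ± 0.281 FPKM (SD, n = 3), Cre07.g326626 averaged 0.0267 ± 0.0231 FPKM, and Cre11.g474650 was at 0.

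Most of the 12 deepest decreases had low levels in UVM11-C9 as well. The mean in UVM11-C9 was 0.129 FPKM for Cre11.g467713, 0.0239 FPKM for Cre16.g674151, 0.613 FPKM for Cre01.g042700 and 1.12 FPKM for Cre12.g554100, all below the levels of UVM11. On the log2 scale, UVM11-C1 differed from UVM11-C9 by 1.14 in Cre16.g674151 (adjusted p = 0.000392 in limma) and by -0.89 in Cre01.g042700 (adjusted p = 0.00705 in limma). Cre11.g467713 and Cre12.g554100 did not pass this test (adjusted p = 0.929 and 0.875 in limma). The 140 lower DEGs had a median of -1.498 on the log2 scale for UVM11-C1 over UVM11, and the same genes one of -1.02 for UVM11-C9 over UVM11. For the 51 higher DEGs the corresponding medians were 1.60 for UVM11-C1 and 0.52 for UVM11-C9. The comparisons of both clones share the cultures of UVM11, so these values are not independent. Other transcripts were low in UVM11-C1 and not in UVM11-C9. Between these clones, 566 genes were DEGs (3.67% of all tested), 290 of them higher (1.88%) and 276 lower (1.79%) in UVM11-C1. Cre03.g199871 (chromosome 3, 8453591 to 8459056) had 0.0808, 0.207 and 0.200 FPKM in UVM11-C1, against 3.59, 4.01 and 3.68 FPKM in UVM11, a log2 fold change of -3.91 (± 0.14 SE, adjusted p = 2.44e-14 in limma). Its mean was 4.17 FPKM in UVM11-C9 and between 4.15 and 4.83 FPKM in the 3 groups of batch 1, so that UVM11-C1 was the only group in which this transcript was low. The difference between UVM11-C1 and UVM11-C9 was -4.06 on the log2 scale (adjusted p = 7.86e-15 in limma). Cre14.g618820 (chromosome 14, 1593356 to 1597062) had 0.103, 0.0756 and 0 FPKM in UVM11-C1, against 1.73, 2.28 and 2.204 FPKM in UVM11, and averaged 1.99 FPKM in UVM11-C9. The difference between UVM11-C1 and UVM11-C9 was -3.77 on the log2 scale (adjusted p = 7.97e-10 in limma). Elow47 had only 0.0493 FPKM of this transcript.

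**Figure D2:**
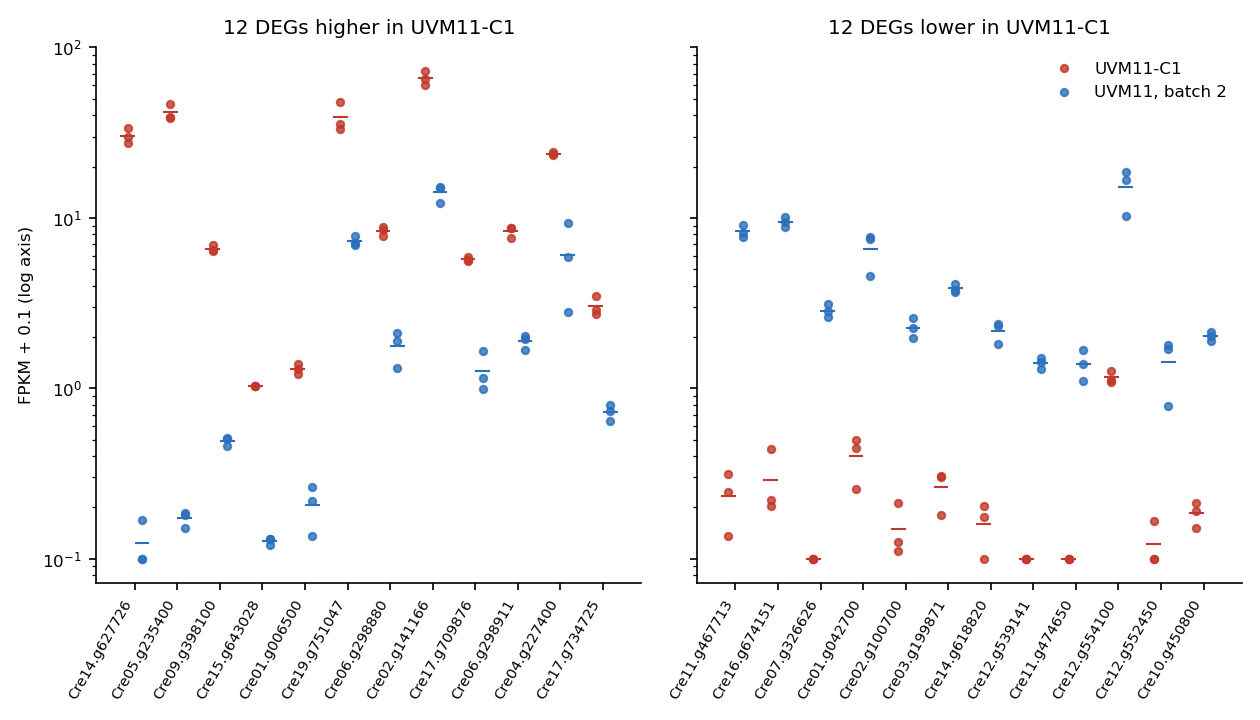
FPKM + 0.1 (log axis) of the 12 DEGs with the largest increase (left) and the 12 with the largest decrease (right) in UVM11-C1, one point per culture and a bar at the mean of 3 cultures. UVM11-C1 (red) stands left of UVM11 of batch 2 (blue) for each gene. Points at 0.1 are values of 0 FPKM, as for the 3 cultures of UVM11-C1 in Cre07.g326626.

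Decreases were also found among abundant transcripts. The most abundant DEG was Cre12.g546550 (chromosome 12, 8671306 to 8675189), with 137, 135 and 132 FPKM in UVM11-C1, against 348, 658 and 626 FPKM in UVM11. The cultures of UVM11-C1 lay close together, whereas UVM11 replicate 5 was well below replicates 6 and 7. The log2 fold change was -1.96 (± 0.18 SE, adjusted p = 1.49e-07 in limma). The genes on either side of it fell as well. Cre12.g546600 had 12.9, 13.0 and 9.72 FPKM in UVM11-C1, against 24.4, 23.7 and 38.4 FPKM in UVM11 (log2 fold change -1.25, adjusted p = 6.97e-05 in limma). Cre12.g546500 had 19.96, 18.74 and 17.64 FPKM in UVM11-C1, against 48.4, 59.6 and 64.0 FPKM in UVM11 (log2 fold change -1.60, adjusted p = 2.54e-09 in limma). In batch 1 Cre12.g546550 averaged 1486 FPKM in UVM11 and 1801 FPKM in Elow47, and Cre12.g546500 averaged 134 FPKM in UVM11 and 161 FPKM in Elow47, so that UVM11 itself differed between the batches. Neither gene passed the test between UVM11 and Elow47 there (adjusted p = 0.332 and 0.112 in limma). By contrast, Cre12.g546600 was a DEG lower than in Elow47 in both UVM11 and UVM4. UVM4 over Elow47 gave a log2 fold change of -1.01 for Cre12.g546550 (adjusted p = 0.000128 in limma). For Cre12.g546500 it was -0.76 (adjusted p = 1.4e-05 in limma). Cre09.g393150 (chromosome 9, 2173636 to 2185319) had 94.7, 88.3 and 82.7 FPKM in UVM11-C1, against 166, 204 and 232 FPKM in UVM11. In batch 1 it averaged 375 FPKM in UVM11 and 436 FPKM in Elow47. Its log2 fold change was -1.17 (± 0.11 SE, adjusted p = 1.21e-07 in limma). Cre08.g384800 (chromosome 8, 4866566 to 4871357) showed another order, with 20.56, 18.75 and 16.999 FPKM in UVM11-C1, against 53.9, 51.2 and 54.0 FPKM in UVM11, while UVM11 of batch 1 and Elow47 had 14.2 and 14.7 FPKM. Its log2 fold change was -1.497 (± 0.09 SE, adjusted p = 1.34e-10 in limma). UVM11-C9 was low as well, with means of 103 FPKM for Cre12.g546550, 13.4 FPKM for Cre12.g546500, 68.3 FPKM for Cre09.g393150 and 13.6 FPKM for Cre08.g384800. Its log2 fold changes over the same UVM11 cultures were -2.36, -2.08, -1.54 and -1.96 in this order. For Cre08.g384800, UVM4 averaged 14.1 FPKM, so that UVM11 of batch 2 was the only group with a high level.

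The study listed 18 genes as higher in both mutants and lower in both complemented strains. Because that list was drawn from these samples, the direction of its genes in UVM11-C1 was fixed by the choice and is given as a description. All 18 were DEGs lower in UVM11-C1, with log2 fold changes between -5.25 and -1.16 and a median of -2.58. They include genes annotated by the study. Cre13.g606300, annotated as a 2'-5' oligoadenylate synthase, an enzyme class that makes a signalling nucleotide in the antiviral response of animals, had 0.719, 1.11 and 0.7096 FPKM in UVM11-C1, against 17.9, 6.52 and 8.88 FPKM in UVM11. UVM11 replicate 5 had the highest value, and no culture of UVM11-C1 came near the lowest. Cre17.g729101, a pherophorin, a family of extracellular matrix glycoproteins of volvocine algae, had 0.224, 0.308 and 0.335 FPKM in UVM11-C1, against 1.69, 2.28 and 2.35 FPKM in UVM11. Cre14.g630000, a ketoacid isomerase-like protein with a SnoaL-like domain, had 1.65, 1.30 and 1.45 FPKM in UVM11-C1, against 6.38, 3.42 and 6.27 FPKM in UVM11. Cre05.g245500, a flagellar associated protein with ankyrin repeats, had 0.707, 0.821 and 1.02 FPKM in UVM11-C1, against 3.04, 1.98 and 2.02 FPKM in UVM11. Cre01.g041752, a protein kinase, was near the filter, with 0.0213, 0.0273 and 0.0365 FPKM in UVM11-C1, against 0.157, 0.218 and 0.187 FPKM in UVM11. The most abundant of the 18 was Cre12.g541550, with 13.2, 15.1 and 8.88 FPKM in UVM11-C1, against 76.0, 32.6 and 46.7 FPKM in UVM11. It remained higher in UVM11-C1 than in UVM11-C9, by 2.58 on the log2 scale (adjusted p = 4.88e-07 in limma). Over all 140 lower DEGs the median log2 fold change was -1.498.

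Batch 1 gave a comparison of UVM11 with Elow47 that shares no library with the one described here. Among its 15425 genes, 1.26% were higher and 0.143% lower in UVM11. Of the 140 DEGs lower in UVM11-C1, 41 (29.3%) were higher in UVM11 than in Elow47, which is 21.1% of the 194 genes of that set, and 2 were lower. Of the 51 DEGs higher in UVM11-C1, 2 (3.92%) were lower in UVM11 than in Elow47, and 8 (15.7%) were higher. Against UVM4, the mutant with another allele, 33 of the 140 lower DEGs (23.6%) were higher in UVM4 than in Elow47, compared with 0.985% of all tested genes, and 4 (2.86%) were lower, compared with 0.130%. Of the 51 higher DEGs, 6 (11.8%) were higher and 1 (1.96%) was lower in UVM4 than in Elow47. Opposite directions in UVM11-C1 over UVM11 and in UVM11 over Elow47 were thus found for 41 of the lower and 2 of the higher DEGs. The first number depended on the filter and the pseudocount, and was 16 among genes above 1 FPKM and 8 with a pseudocount of 1.

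The levels of the lower DEGs across all groups add to this. Their median level was 0.436 FPKM in UVM11-C1, against 2.04 FPKM in UVM11 of batch 2, 0.917 FPKM in UVM11-C9, 0.915 FPKM in UVM11 of batch 1, 0.844 FPKM in UVM4, and 0.548 FPKM in Elow47. The high value in UVM11 of batch 2 and the low one in UVM11-C1 follow in part from the selection. UVM11 of batch 2 nevertheless stood above UVM11 of batch 1 in several of the genes named here, although the strain is the same. Cre11.g467713, at 7.63 to 8.96 FPKM in batch 2, averaged 0.282 FPKM in UVM11 of batch 1. Cre13.g606300 averaged 11.1 FPKM in UVM11 of batch 2 and 0.836 FPKM in UVM11 of batch 1. In Cre16.g674151 the batches of UVM11 were alike, with 9.17 FPKM in batch 1, and Cre07.g326626 was higher in batch 1, at 12.9 FPKM. For all 51 higher DEGs the median level was 2.97 FPKM in UVM11-C1, against 0.918 FPKM in UVM11 of batch 2, 1.29 FPKM in UVM11-C9, 0.774 FPKM in UVM11 of batch 1, 0.768 FPKM in UVM4, and 0.532 FPKM in Elow47. UVM11-C1 had the highest mean of the 6 groups in 39 of the 51 higher DEGs (76.5%), compared with 18.8% of all tested genes, and the lowest mean in 44 of the 140 lower DEGs (31.4%), compared with 19.7%. UVM11 of batch 2 had the highest mean in 93 of the 140 lower DEGs (66.4%), compared with 17.3% of all tested genes. The DEGs were chosen for UVM11-C1 lying beyond UVM11 of batch 2, which favours all of these shares. Batch and strain differences cannot be told apart where UVM11-C1 is set beside batch 1.

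**Figure D3:**
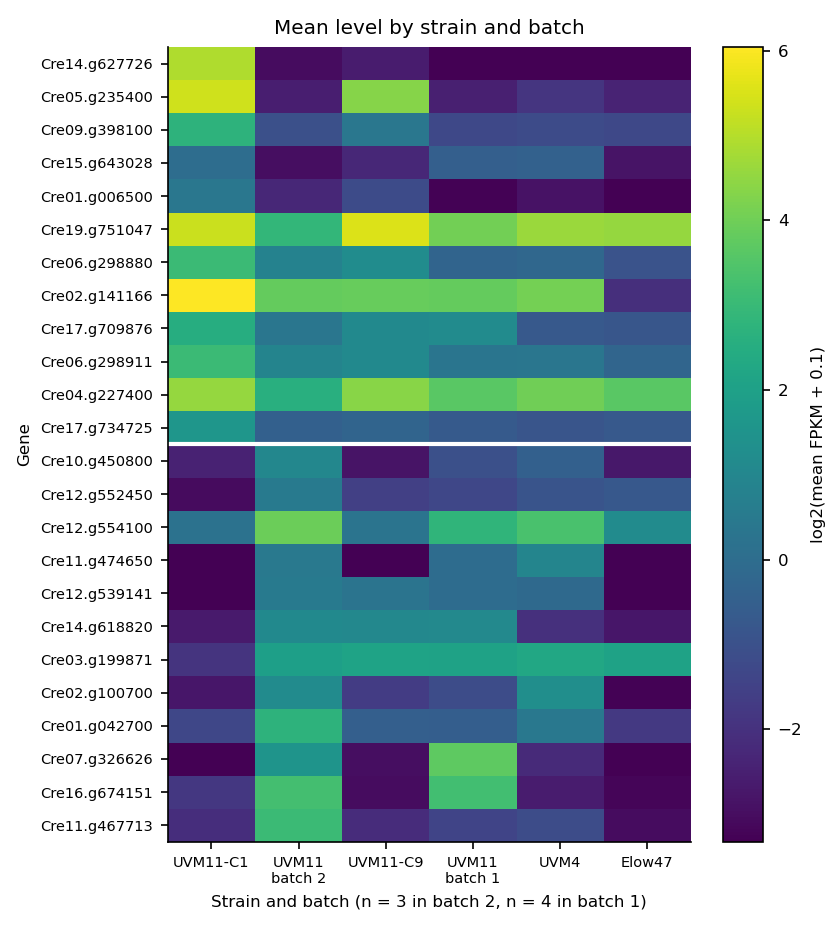
Mean level, as log2(mean FPKM + 0.1), of the 12 DEGs with the largest increase (above the white line) and the 12 with the largest decrease (below it) in the 6 groups of the series, with 3 cultures per group in batch 2 and 4 in batch 1. Cre03.g199871 is low only in UVM11-C1, Cre16.g674151 is high in UVM11 of both batches, and Cre02.g141166 is low only in Elow47.

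Among the genes higher in UVM11-C1, a pair stood apart. Cre05.g235400 (chromosome 5, 2440494 to 2450801) had 38.3, 39.2 and 46.8 FPKM in UVM11-C1, against 0.0849, 0.0518 and 0.0807 FPKM in UVM11. The second clone shared most of this increase, since UVM11-C9 averaged 20.4 FPKM of the Cre05.g235400 transcript. On the log2 scale UVM11-C1 lay 7.91 above UVM11 (adjusted p = 4.77e-19 in limma). UVM11-C9 lay 6.90 above the same cultures (adjusted p = 4.99e-18 in limma). UVM11-C1 exceeded UVM11-C9 by 1.01 on this scale (± 0.15 SE, adjusted p = 2.24e-05 in limma). The adjacent Cre05.g235355 did not pass the filter but was at 0.322, 0.459 and 0.277 FPKM in UVM11-C1 and at 0 in each culture of UVM11, while Cre05.g235450 on the other side had a log2 fold change of -0.14 (adjusted p = 0.159 in limma).

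Cre14.g627726 (chromosome 14, 2952931 to 2953986) was particular to UVM11-C1, with 27.5, 29.7 and 33.6 FPKM, against 0, 0.0680 and 0 FPKM in UVM11. It was at 0 in every group of batch 1, and the difference between UVM11-C1 and UVM11-C9 was 7.74 on the log2 scale (± 0.30 SE, adjusted p = 7.04e-14 in limma). Both neighbours of this gene changed in the opposite direction. Cre14.g627700 (2948285 to 2952796) had 0.447, 0.585 and 0.523 FPKM in UVM11-C1, against 1.503, 1.384 and 1.547 FPKM in UVM11, a log2 fold change of -1.36 (± 0.14 SE, adjusted p = 1.41e-06 in limma). Cre14.g627750 (2954561 to 2959736) was at 0 in each culture of UVM11-C1, against 0.837, 0.958 and 1.01 FPKM in UVM11 (adjusted p = 5.94e-14 in limma). It was near 0.91 FPKM in both UVM11-C9 (0.910 FPKM) and Elow47 (0.915 FPKM). The next genes outward had log2 fold changes of 0.03 for Cre14.g627650 (adjusted p = 0.881 in limma) and -0.01 for Cre14.g627788 (adjusted p = 0.95 in limma). Farther out, Cre14.g628050 averaged 6.54 FPKM in UVM11-C1, against 5.41 FPKM in UVM11 (log2 fold change 0.27, adjusted p = 0.00717 in limma). Over a window of 13 tested genes around this locus, the 10 that were not DEGs had a median of -0.01.

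The next largest increases were of a few log2 units. Cre09.g398100 (chromosome 9, 1476029 to 1488384) had 6.32, 6.34 and 6.85 FPKM in UVM11-C1, against 0.356, 0.400 and 0.410 FPKM in UVM11, a log2 fold change of 3.76 (± 0.17 SE, adjusted p = 1.96e-12 in limma). It was also raised in UVM11-C9, at a mean of 1.20 FPKM (log2 fold change over UVM11 1.41, adjusted p = 1.57e-06 in limma). The adjacent Cre09.g398150 also rose, with 9.39, 9.69 and 11.1 FPKM in UVM11-C1, against 4.16, 3.88 and 4.15 FPKM in UVM11 (log2 fold change 1.28, adjusted p = 1.44e-10 in limma). Cre15.g643028 (chromosome 15, 1456047 to 1470988) had 0.932, 0.932 and 0.924 FPKM in UVM11-C1, against 0.0299, 0.0202 and 0.0303 FPKM in UVM11, a log2 fold change of 3.02 (± 0.18 SE, adjusted p = 1.35e-10 in limma). UVM11 of batch 1 averaged 0.619 FPKM of this transcript and UVM4 0.646 FPKM, so that UVM11 itself differed between the batches. UVM11-C9 averaged 0.103 FPKM and Elow47 0.0406 FPKM. Cre01.g006500 (chromosome 1, 1119870 to 1123965) had 1.19, 1.28 and 1.12 FPKM in UVM11-C1, against 0.117, 0.0360 and 0.162 FPKM in UVM11, a log2 fold change of 2.71 (± 0.25 SE, adjusted p = 1.49e-07 in limma). UVM11-C9 averaged 0.342 FPKM of it (log2 fold change over UVM11 1.15, adjusted p = 0.000811 in limma). With a pseudocount of 1, Cre15.g643028 and Cre01.g006500 stayed just under the fold threshold, at 0.91 and 0.99.

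Abundant transcripts also rose. Cre02.g141166 (chromosome 2, 8196226 to 8200511) had 60.1, 65.0 and 72.2 FPKM in UVM11-C1, against 12.1, 15.1 and 14.8 FPKM in UVM11, a log2 fold change of 2.23 (± 0.10 SE, adjusted p = 2.98e-12 in limma). The other srta mutant groups and UVM11-C9 were at the level of UVM11, between 13.95 and 16.79 FPKM, and Elow47 had only 0.140 FPKM, so that the gene moved further from Elow47 in UVM11-C1. Cre19.g751047, on a scaffold not assigned to a chromosome, had 48.0, 35.3 and 33.2 FPKM in UVM11-C1, against 6.85, 7.04 and 7.73 FPKM in UVM11, a log2 fold change of 2.396 (± 0.13 SE, adjusted p = 5.05e-11 in limma). Here UVM11 of batch 2 was the lowest group, since UVM11-C9 averaged 47.1 FPKM and the 3 groups of batch 1 between 16.4 and 24.4 FPKM. Cre04.g227400 (chromosome 4, 3355079 to 3363615) had 23.4, 24.4 and 23.2 FPKM in UVM11-C1, against 2.72, 9.24 and 5.80 FPKM in UVM11, a log2 fold change of 2.15 (± 0.26 SE, adjusted p = 9.29e-06 in limma). The cultures of UVM11 varied widely, and in a fit of the 6 libraries alone the adjusted p was 0.0132, above the threshold. Both of these genes had levels in UVM11-C1 that were closer to UVM11-C9 than to UVM11, with differences from UVM11-C9 of -0.30 (adjusted p = 0.0743 in limma) and 0.21 (adjusted p = 0.523 in limma) that did not pass the test.

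Some DEGs of one direction lay side by side, and whether more did so than in a random order was not tested. Taking the tested genes in the order of their start positions, 40 of the 186 DEGs on assembled chromosomes adjoined at least 1 other DEG of the same direction, in 15 runs of 2 to 5 genes, 7 of higher and 8 of lower genes. Taking all annotated genes in order, there were 12 runs with 30 genes. On chromosome 6, Cre06.g298880 had 8.69, 8.36 and 7.67 FPKM in UVM11-C1, against 1.21, 2.01 and 1.79 FPKM in UVM11. Its neighbour Cre06.g298911 had 8.62, 8.60 and 7.50 FPKM in UVM11-C1, against 1.84, 1.58 and 1.93 FPKM in UVM11. The log2 fold change was 2.26 ± 0.18 (SE) for Cre06.g298880 and 2.15 ± 0.12 (SE) for Cre06.g298911, with adjusted p-values of 1.7e-08 and 5.29e-11 in limma. On chromosome 5, 3 adjacent genes within 8.43 kb rose by similar factors, with log2 fold changes of 1.79 for Cre05.g241644, 1.93 for Cre05.g241645 and 1.88 for Cre05.g241646. Of the runs of lower genes, Cre01.g042600, Cre01.g042650 and Cre01.g042700 spanned 13.8 kb of chromosome 1 and had at most 0.394 FPKM in any culture of UVM11-C1, against at least 0.444 FPKM in every culture of UVM11. On chromosome 2, Cre02.g096450, Cre02.g096455 and Cre02.g096500 had log2 fold changes of -1.12, -1.56 and -1.07. Whether the counting used strand, or how fragments that match several similar genes were assigned, is not given in the sources used here, so values of overlapping or closely similar neighbours may not be independent.

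A region of chromosome 8 held the decreases with the smallest errors. Cre08.g373346 (2763056 to 2765294) had 6.24, 6.61 and 5.58 FPKM in UVM11-C1, against 64.8, 65.7 and 60.9 FPKM in UVM11, a log2 fold change of -3.36 (± 0.08 SE, adjusted p = 5.52e-18 in limma). Cre08.g373359 (2850909 to 2852724) had 6.10, 6.28 and 5.601 FPKM in UVM11-C1, against 66.9, 67.7 and 63.8 FPKM in UVM11, a log2 fold change of -3.44 (± 0.06 SE, adjusted p = 2.3e-19 in limma). The levels of both genes were nearly the same within UVM11-C1 and within UVM11. Between them, Cre08.g373348 and Cre08.g373349, whose models overlap, had log2 fold changes of -2.23 (SE 0.30) and -1.67 (SE 0.20). Of the 25 gene models in the stretch shown in the plot of gene order, 20 did not pass the filter, and their highest mean over the 6 libraries was 0.00708 FPKM. All 4 genes had a higher mean in each of the other 5 groups than in UVM11-C1. UVM11-C9 averaged 51.2 FPKM for Cre08.g373346 and 106 FPKM for Cre08.g373359, and Elow47 averaged 53.6 and 47.0 FPKM for the same genes. The difference between UVM11-C1 and UVM11-C9 was -4.13 on the log2 scale for Cre08.g373359 (adjusted p = 2e-21 in limma).

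On chromosome 17, 5 consecutive tested genes within 48.0 kb were higher in UVM11-C1. The most abundant, Cre17.g734757 (5025008 to 5029447), had 80.1, 102 and 127 FPKM in UVM11-C1, against 29.8, 34.3 and 35.8 FPKM in UVM11, a log2 fold change of 1.60 (± 0.11 SE, adjusted p = 1.46e-09 in limma). Its mean was 51.9 FPKM in UVM11-C9, 51.4 FPKM in UVM11 of batch 1, 61.1 FPKM in UVM4 and 28.2 FPKM in Elow47. UVM11-C9 lay 0.64 above UVM11 of batch 2 on the log2 scale (adjusted p = 9.37e-05 in limma). Cre17.g734725 (5010966 to 5014267) had 2.61, 3.36 and 2.79 FPKM in UVM11-C1, against 0.540, 0.698 and 0.640 FPKM in UVM11, a log2 fold change of 2.06 (± 0.18 SE, adjusted p = 1.08e-07 in limma). The remaining genes of the run, Cre17.g734693, Cre17.g734741 and Cre17.g734773, had log2 fold changes of 1.40, 1.55 and 1.08. In batch 1, Cre17.g734693 and Cre17.g734773 were DEGs higher in UVM11 than in Elow47, and Cre17.g734757 was one higher in UVM4. The genes before the run were also slightly higher. In a stretch of 32 gene models (4825423 to 5034312), chosen after its values were seen, all 28 tested genes had a log2 fold change above 0, compared with 49.7% of the tested genes of the whole chromosome. The 22 genes of the stretch that were not DEGs had a median of 0.27. Such small rises were not all particular to UVM11-C1. Cre17.g734200 averaged 115 FPKM in UVM11-C1, 83.1 FPKM in UVM11, 121 FPKM in UVM11-C9 and 106 FPKM in Elow47. Other genes were not raised in UVM11-C9, as Cre17.g734596 averaged 34.1, 23.7, 21.2 and 28.6 FPKM in the same groups. A further DEG there was Cre17.g734125 (4845833 to 4848364), with 25.2, 24.2 and 32.4 FPKM in UVM11-C1, against 10.9, 13.0 and 11.3 FPKM in UVM11 (log2 fold change 1.21, adjusted p = 1.87e-08 in limma).

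**Figure D4:**
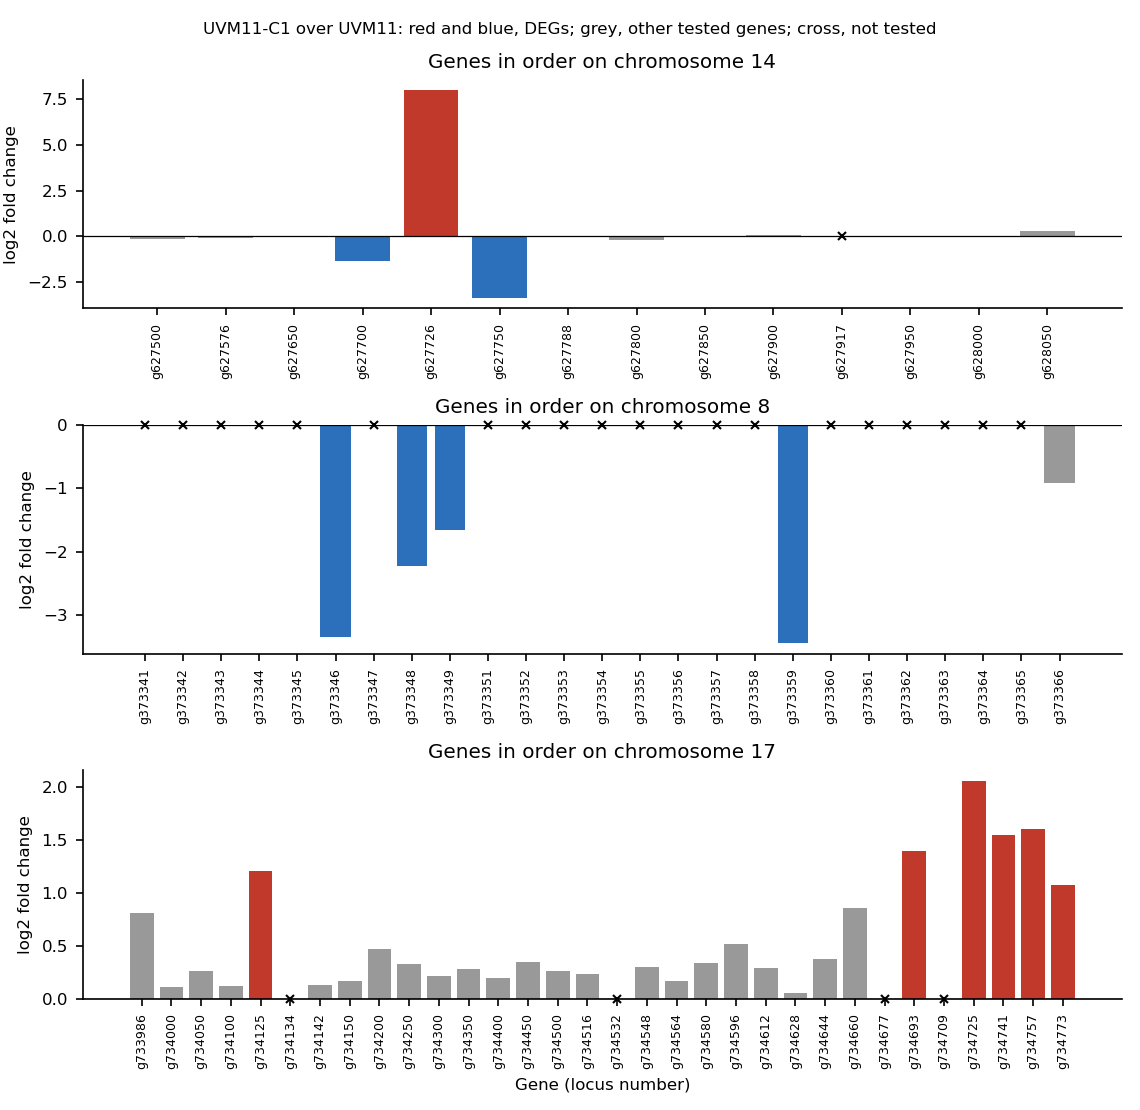
Log2 fold change of UVM11-C1 over UVM11 for consecutive gene models around 3 loci on chromosomes 14, 8 and 17, in the order of their start positions. Red and blue bars are DEGs, grey bars are other tested genes, and crosses are gene models that did not pass the filter. On chromosome 14 a gene with a large increase sits between 2 genes with decreases, on chromosome 8 the 4 DEGs lie among gene models that were not tested, and on chromosome 17 all 28 tested genes are above 0.

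Chromosome 15 as a whole differed slightly. Its 172 tested genes had a median log2 fold change of 0.18, or 1.14-fold, and 136 of them (79.1%) were above 0. On the other 16 chromosomes the median lay between -0.02 and 0.01, and the share above 0 between 46.8% and 53.3%. The median gene of the chromosome, relative to the mean of UVM11, was at 0.190, 0.190 and 0.192 in the cultures of UVM11-C1, against -0.013, -0.007 and 0.017 in UVM11 (log2 scale). The cultures of each strain were close together and the strains did not overlap. The exact permutation test gave p = 0.1, the smallest that 3 against 3 cultures allow, and a value of 0.425 after adjustment over the 17 chromosomes. Chromosomes 3, 7 and 16 reached the same smallest p with medians of -0.01, 0.01 and -0.02. Chromosome 15 was singled out after its values were seen. The shift ran along the chromosome, since the medians of its genes in 4 consecutive blocks of 43 genes were 0.20, 0.20, 0.17 and 0.18. Of the 172 genes, 4 were DEGs, 3 higher and 1 lower, a share of 2.33%, compared with 1.24% of all tested genes, whereas 30 genes were higher and 1 was lower at an adjusted p below 0.01 without regard to fold, compared with the 3.57% higher and 4.76% lower of all tested genes. In the other groups, the same measure ranged over 0.021 to 0.057 in UVM11-C9, 0.098 to 0.135 in UVM11 of batch 1, 0.025 to 0.066 in UVM4, and 0.048 to 0.101 in Elow47. UVM11-C1 was thus the highest group, and UVM11 of batch 1 stood between it and UVM11 of batch 2. In UVM11-C9 it was chromosome 9 whose tested genes had a shifted median against UVM11, at 0.15, while chromosome 9 had a median of 0.00 in UVM11-C1.

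**Figure D5:**
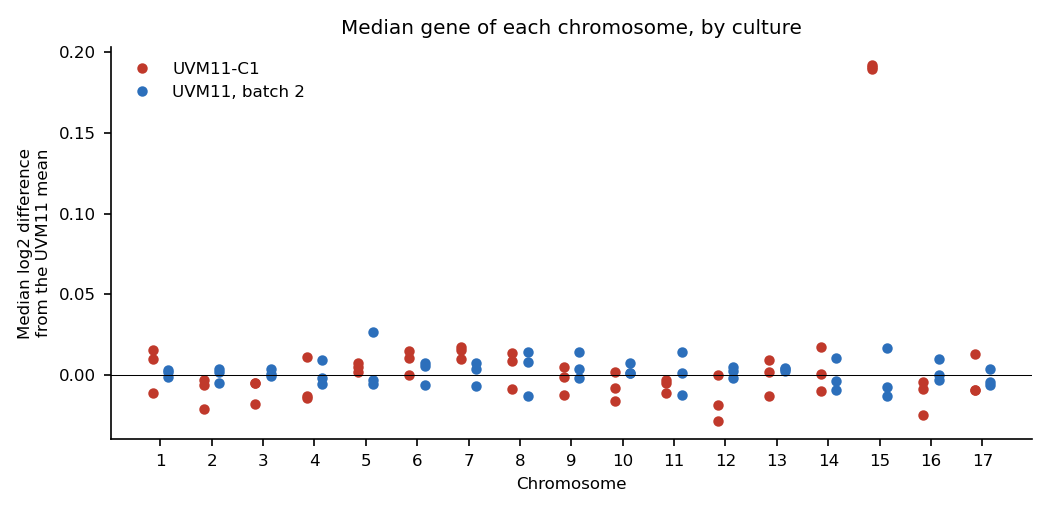
Median log2 difference from the mean of UVM11 over the tested genes of each of the 17 chromosomes, one point per culture, with UVM11-C1 (red) left of UVM11 of batch 2 (blue). On chromosome 15 the 3 cultures of UVM11-C1 lie at about 0.19, and on all other chromosomes both strains lie near 0.

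The interval of chromosome 10 to which the study had mapped the mutation was also examined. Of its genes, 288 were tested, their median log2 fold change was 0.00, and 40 had an adjusted p below 0.05, compared with 18.4% of all tested genes. The 1 DEG among the 288, compared with 1.24% of all tested genes, was Cre10.g450800 (4295790 to 4298331), with 0.0522, 0.112 and 0.0897 FPKM in UVM11-C1, against 1.79, 1.94 and 2.04 FPKM in UVM11, a log2 fold change of -3.47 (± 0.29 SE, adjusted p = 3.12e-08 in limma). It belongs to the 18 genes listed by the study. SRTA lies in the same interval and stayed under the fold threshold.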

How the data were processed

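RNA was sequenced from 21 cultures. The authors aligned reads to the Chlamydomonas genome v5 with annotation v5.5 (STAR 2.4.0j, per the submitters' processing notes) and computed FPKM with Cuffdiff 2.2.1. The deposited table of FPKM values per gene and culture was used as it stands. The labels and the paper name different library kits, and whether counting used strand is not given in the sources used here. From log2(FPKM + 0.1), limma 3.58.1 (R 4.3.3, trend) was fitted to all 21 libraries in 6 groups (15 residual degrees of freedom), on genes with a mean above 0.1 FPKM, with Benjamini-Hochberg adjustment over 15425 genes. The fit assumes 1 spread for all groups, whereas the median SD of log2 values between cultures was 0.0833 to 0.124 over the 6 groups. Relative depth came from 612 genes with few fragments, of which 98.3% of 4744 values fell within 0.1 of whole steps.

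Named genes were SRTA and the HDACs, the 12 DEGs with the largest change in each direction whose cultures do not overlap, the 5 most abundant in each direction, members of lists, and DEGs adjoining another of the same direction. Flanking genes and gene models under the filter were named after their values were seen. The members and lists were chosen with earlier results of these data known. Positions are from RefSeq (assembly v5.5, 17738 of 17741 gene models matched). RefSeq gives no gene symbols, so pathway lists and cell type markers could not be matched and are not reported. Exact permutation tests used scipy 1.17.1. Alternatives were other pseudocounts (1 and 0.01), filters, quantile normalization, smaller fits, other thresholds, and leaving out each culture.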

Additional observations from a re-analysis of the deposited data

Results flagged for a closer look

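UVM11-C1 and UVM11-C9 carry the same construct, and 18 of the 31 DEGs named for their size or abundance differed between them by more than 1 on the log2 scale at a limma adjusted p below 0.01, compared with 3.67% of all tested genes. The 31 genes were chosen for their values in these same cultures of UVM11-C1, which favours such differences. Higher in UVM11-C1 than in UVM11-C9 were Cre14.g627726 (7.74), Cre15.g643028 (2.35), Cre09.g398100 (2.35), Cre02.g141166 (2.16), Cre06.g298911 (1.94), Cre17.g734725 (1.91), Cre06.g298880 (1.83), Cre01.g006500 (1.57), Cre17.g709876 (1.46), Cre17.g734125 (1.31), Cre16.g674151 (1.14) and Cre05.g235400 (1.01), each as a difference on the log2 scale. Lower in UVM11-C1 were Cre08.g373359 (-4.13), Cre03.g199871 (-4.06), Cre14.g618820 (-3.77), Cre12.g552450 (-1.51) and Cre02.g100700 (-1.09), as well as Cre12.g539141, which was listed at 0 in every culture of UVM11-C1, against a mean of 1.12 FPKM in UVM11-C9.

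In batch 1, 3 of 28 groups of 4 cultures examined for SRTA and the 5 largest changes in each direction held 1 culture apart from the rest. In all 3 groups the other 3 cultures were listed at 0, so that any value above 0 stands apart by construction, and the usual rate of about 1 in 20 by chance does not apply. These were a culture of UVM11 with 0.0126 FPKM of Cre01.g006500, a culture of Elow47 with 0.0383 FPKM of Cre16.g674151, and a culture of Elow47 with 0.0142 FPKM of Cre02.g100700.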

How the results depend on the processing

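The number of DEGs depended on how low values were treated. With a pseudocount of 1 the higher, lower and opposite (lower in UVM11-C1 and higher in UVM11 than in Elow47) DEGs numbered 22, 56 and 8, with a mean above 1 FPKM 28, 71 and 16, and with a test against a log2 fold change of 1 (limma treat) 17, 37 and 10, against 51, 140 and 41. A fit of the 6 libraries alone gave 32 higher DEGs, 30 of them among the 51. The filter tests fewer genes, and a pseudocount of 1 shrinks fold changes of weak genes, by construction, while the cause of the lower count with 6 libraries was not tested. The other alternatives gave counts within 1.5 times. Leaving out each culture gave 48 to 59 higher, 123 to 151 lower and 39 to 45 opposite DEGs, and a log2 fold change of SRTA between 0.81 and 0.91. With a culture left out, 1 strain had 2 cultures in the fit. The median of chromosome 15, whose alternatives were chosen after seeing the data, was 0.12 with a pseudocount of 1, 0.19 above 1 FPKM, 0.22 after quantile normalization, and 0.17 to 0.20 with a culture left out. SRTA and the 31 DEGs named for their size or abundance kept their direction in every alternative that could be run for them, and the other named genes were not run. No paired analysis was possible because the cultures of UVM11-C1 and UVM11 share no replicate numbers. Depth in fragments is unknown, which limits what values near 0 can show.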
